A study of Mus musculus with 161 samples.

Results

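The ΔN(1–89) line carries a CTCF transgene that lacks the start of the N-terminus, a deletion that its sample labels write as residues 1–88. Its 2 chromosome-conformation capture carbon copy (5C) libraries, of 91 in the series, were compared with the 14 libraries of the line that expresses the full-length transgene. Members were chosen by cell line and treatment alone. All 16 libraries came from male mouse embryonic stem cells (E14Tg2a, 129/Ola background) in which both lines share the same background: endogenous CTCF is fused to an auxin-inducible degron (AID), the Tir1 receptor is present, and the reverse transactivator Rtta3G drives a TetO-controlled CTCF cDNA. Cells were treated for 4 days with auxin, which degrades the endogenous protein, and with doxycycline (dox), which induces the transgene. The ΔN(1–89) line, EN214.1, is a single clone, and so is the full-length line, EN133.10, the clone with high expression of the transgene. The deletion and the clone therefore cannot be told apart. The 5C counts do not read out the deletion itself, nor the amount of transgenic protein, so neither could be checked in these libraries.

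CTCF binds DNA through its zinc fingers and stops cohesin, the ring complex that extrudes chromatin loops. This leaves topologically associating domains (TADs), within which contacts are frequent, and boundaries, across which they are rare. The motif is not symmetric, so its orientation sets to which side the N-terminus of the bound protein points, and it is this end that the deletion shortens. The 5C region lies around Xist, the noncoding RNA that silences the inactive X chromosome in females, and Tsix, its antisense repressor.

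5C reads out how often a restriction fragment with a forward primer was ligated to one with a reverse primer. The 2 ΔN(1–89) libraries held 13619648 and 12947693 counts. The full-length libraries with complete count matrices ranged from 5262254 to 23096139 counts, and the count matrices of 2 more full-length libraries are cut short, so only their corrected values were used. Of the primer pairs used, 42.3% and 35.3% had no count in the ΔN(1–89) libraries, within the range of the full-length ones (27.4% to 59.0%). Corrected values were averaged in 20-kb bins. Each value is a mean over a population of cells, so a contact made in fewer cells and a weaker contact in each cell cannot be told apart.

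The 6 boundaries that the study lists are 20-kb bins on chromosome X (mm9). Boundary 1 (chrX:99151149-99171148) lies in Nhsl2 and boundary 2 (chrX:99411149-99431148) in no annotated coding or long noncoding gene. Boundary 3 (chrX:100451149-100471148) overlaps 4930519F16Rik. Boundary 4 (chrX:100671149-100691148) holds the 5′ end of Xist with parts of Tsix and Enox, and separates the domain of Tsix, Tsx, Chic1 and Cdx4 from that of Rlim, which encodes an activator of Xist. Boundary 5 (chrX:101211149-101231148) holds no gene, and boundary 6 (chrX:103211149-103231148) overlaps Cox7b and Atp7a. The deposited list of FLAG–CTCF peaks, made in cells with the full-length transgene, has 78 peaks of 200 bases in the region. A simplified CTCF core of 12 letters (CC, any 3 bases, AG, any 2 bases, GGC), searched on both strands, was found in 39 of them (50%), against 2.12% of 22849 windows of equal length outside the peaks.

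The matches at the boundaries are shown because CTCF's N-terminus faces one side of each. Within 40 kb of a boundary bin there were 14 matches. All 8 inside boundary bins were on the plus strand, and the other 6, all upstream, were on the minus strand. Of these, the 11 below are the 8 in boundary bins, both minus-strand matches 40 kb before boundary 4, in the stretch where insulation differed most, and the match nearest to boundary 5, whose own bin holds no peak. Each is printed 5′ to 3′ on the strand of the match (mm9), with the 12 matched bases in capitals.
Boundary 1, chrX:99170401-99170430, plus strand: tcagatacaCCAGAAGAGGGCactggatcc
Boundary 2, chrX:99414652-99414681, plus strand: ctgtatagtCCAGCAGAGGGCactggatgt
Boundary 2, chrX:99415163-99415192, plus strand: tcagacacaCCAGAAGAGGGCgtcaaatct
Boundary 3, chrX:100455384-100455413, plus strand: accaggtgaCCACTAGATGGCggtatagta
Before boundary 4, chrX:100639277-100639306, minus strand: gcaaaaagtCCACAAGATGGCgatagagac
Before boundary 4, chrX:100649576-100649605, minus strand: tcagatataCCAGAAGAGGGCaccagatcc
Boundary 4, chrX:100677064-100677093, plus strand: tgaaagaaaCCACTAGAGGGCaggtcacat
Boundary 4, chrX:100679562-100679591, plus strand: ctgaataaaCCAGCAGGTGGCagcatgaat
Before boundary 5, chrX:101185955-101185984, minus strand: acctgcatgCCAGAAGAGGGCaccagatcc
Boundary 6, chrX:103214286-103214315, plus strand: tcaggcacaCCAGCAGGGGGCatcagatcc
Boundary 6, chrX:103221925-103221954, plus strand: cttagaaggCCAGAAGAGGGCatcgattcc

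The first question was whether CTCF without this part of its N-terminus insulates neighbouring domains as well as the full-length protein does. Insulation was scored in each bin from the contacts between the 100 kb before and the 100 kb after it. Their mean was divided by its average along the region, and the score is the negative of its log2, so a higher score stands for fewer contacts across the bin. Averaged over the 6 boundaries, the ΔN(1–89) libraries scored 0.48 and 0.50. The full-length libraries ranged from 0.54 to 0.71 with a median of 0.60. Neither ΔN(1–89) library reached the lowest of the 14, and mean insulation fell by 0.12 from 0.61 ± 0.040 (SD, n = 14) to 0.49 ± 0.016 (SD, n = 2). The two-sided exact permutation test gave p = 0.0167, the smallest p that 2 libraries against 14 allow. Set against only the 2 full-length libraries whose library numbers belong to the same consecutive run (the labels do not say whether such a run is 1 preparation), the score was lower by 0.10, where the smallest p that the exact test allows is 0.333.

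By boundary, the differences were between -0.23 and -0.15 at boundaries 2, 4 and 6 and between -0.06 and 0.00 at the other 3, though whether boundaries differ from each other was not tested. At boundary 6, within Cox7b and Atp7a, the ΔN(1–89) libraries scored 0.45 and 0.50, and full-length libraries ranged from 0.60 to 0.91 with a median of 0.68. At boundary 2 they scored 0.49 and 0.52, against 0.55 to 0.85 with a median of 0.66. At these boundaries both ΔN(1–89) scores were under the lowest of the 14 full-length scores, and each gave p = 0.0167 (exact permutation test, two-sided, n = 2 and 14) with an adjusted p of 0.05 over the 6 boundaries, which is at the threshold for a call (adjusted p under 0.05) and not under it. Among all 193 bins with a score, 13% had both ΔN(1–89) libraries below all full-length ones and 8.29% had both above, while 2 of the 6 boundary bins had both below and 0 had both above.

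Boundary 4, at the 5′ end of Xist, had the highest score in either line. The ΔN(1–89) libraries scored 1.13 and 1.16 there, against 1.15 to 1.68 with a median of 1.36, so that 1 full-length library lay between them. The difference of -0.23 had an adjusted p of 0.0667 (exact permutation test, two-sided). The full-length line without dox, in which no transgene was induced, scored 1.17 and 1.27 at boundary 4, above both ΔN(1–89) libraries. At every other boundary it scored below both. Boundary 3 (0.29 and 0.35 against 0.30 to 0.44) and boundary 5 (0.63 and 0.67 against 0.63 to 0.79) had smaller differences of -0.06 each, both with an adjusted p of 0.16 by the same exact test. Boundary 1 did not insulate in either line at the listed bin, with -0.19 and -0.18 in ΔN(1–89) and -0.27 to -0.09 in full-length libraries, which overlapped throughout. The calls depended on several settings. In the bin directly before each boundary, 3 boundaries were called, namely 2, 4 and 6, each with an adjusted p of 0.0333 (exact permutation test), and the difference at boundary 4 was then -0.33. At the listed bins, 3 of 6 were called without full-length replicate 1. Raw counts and a 200-kb window each called boundaries 2, 4 and 6. The log2 ratio of contacts within to contacts across called boundaries 2, 3 and 6 instead. By that ratio, boundary 3 had a difference of -0.21 (adjusted p = 0.0333) and boundary 4 of -0.25 (adjusted p = 0.05, exact permutation tests).

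**Figure D1:**
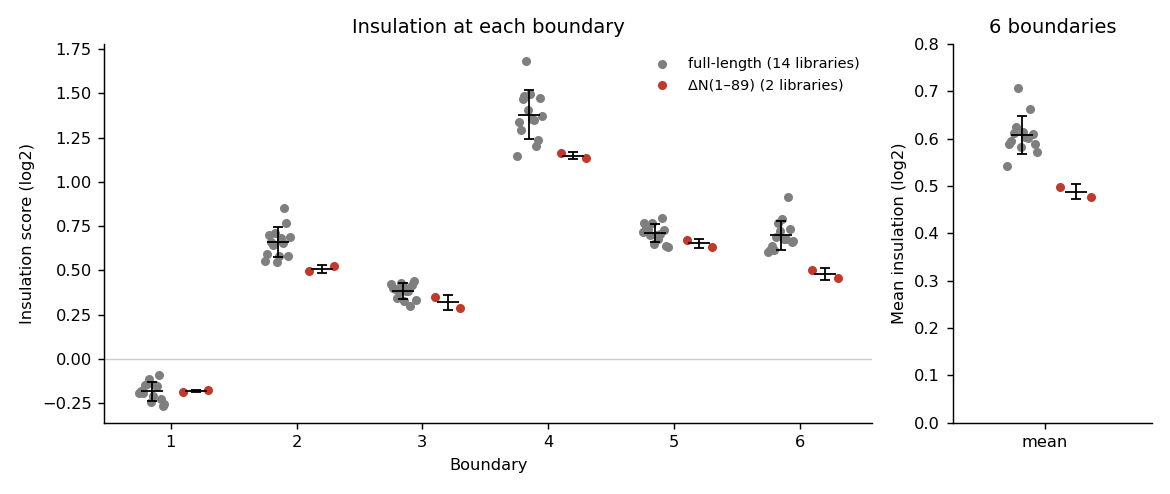
Insulation score (log2, vertical axis) at each of the 6 boundaries (left) and averaged over them (right), with 1 point per library, full-length in grey and ΔN(1–89) in red, and bars for the mean ± SD. Both ΔN(1–89) libraries lie below all 14 full-length libraries at boundaries 2 and 6 and in the mean, and overlap them at boundaries 1, 3, 4 and 5.

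Along the whole region, 30 of 193 bins (15.5%) changed at an adjusted p under 0.05 in a limma fit across all bins. Scores fell in 20 bins (10.4%) and rose in 10 (5.18%). Of the 20 bins that fell, 16 (80%) had a full-length score above 0, against 52.3% of all 193, and 10 held a FLAG–CTCF peak, against 41 of the 193. Of the 10 that rose, 7 had a full-length score below 0, against 92 of the 193, and 2 held a peak. Within 40 kb of a boundary were 6 of the bins that fell and 0 of those that rose, against 30 of the 193 (15.5%). These shares are descriptions with no test. Neighbouring bins share contacts, so these bins are not independent. Each score is also relative to the library's own average along the region, so falls in some bins and rises in others are not separate measurements.

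The bins that fell formed 7 stretches. The longest covered 120 kb directly before boundary 2 (chrX:99291149-99411148), with Pin4, Ercc6l and Rps4x, a ribosomal protein gene, and 5 peaks. All 6 of its bins had both ΔN(1–89) libraries below all full-length ones, with differences between -0.20 and -0.12. The deepest fall was in the 40 kb before boundary 4, in the bodies of Tsix and Xist. In the bin chrX:100651149-100671148, the ΔN(1–89) libraries scored 1.33 and 1.38, and full-length libraries 1.55 to 1.98 with a median of 1.65. The difference was -0.33 ± 0.085 (SE), with an adjusted p of 0.0173 (limma). In the next bin upstream (chrX:100631149-100651148), the scores were 1.21 and 1.26 against 1.38 to 1.66 with a median of 1.46, a difference of -0.26 with an adjusted p of 0.0196 (limma). This call was lost with raw counts (adjusted p = 0.0945, limma) and with median bins (adjusted p = 0.0535, limma), at differences of -0.25 and -0.27.

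These 2 bins lie on the Tsix side of the boundary, and the 2 minus-strand matches printed for that side are in the second of them. A further fall lay within Atrx, which encodes a chromatin remodeller, over 80 kb ending 80 kb before boundary 6 (chrX:103051149-103131148). Its first bin scored 0.26 and 0.32 against 0.42 to 0.81 with a median of 0.51, a difference of -0.24 with an adjusted p of 0.0292 (limma). Of the listed boundary bins, only boundary 6 was called in this fit, with a difference of -0.22 and an adjusted p of 0.0185 (limma).

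By the listed boundary bins, those that rose all lay inside domains, as did those that fell except boundary 6. Only 6 of the 193 scored bins are boundaries. In full-length libraries, the mean score over the boundaries was 0.77 in the bin directly before them and 0.61 at the listed bins. The bins directly before boundaries 2, 4 and 6 were among those that fell, so inside a domain does not mean away from a boundary. The largest rise was in a bin with no annotated gene 200 kb downstream of boundary 5 (chrX:101411149-101431148), where the ΔN(1–89) libraries scored 0.33 and 0.36 and full-length libraries 0.07 to 0.26 with a median of 0.18. This is a rise of 0.18 with an adjusted p of 0.0104 (limma). Before boundary 1 (chrX:99011149-99031148), the scores were -0.32 and -0.31 against -0.55 to -0.44, a rise of 0.17 with an adjusted p of 0.00234 (limma). The bin at Cdx4, a homeobox gene (chrX:100511149-100531148), scored -0.56 and -0.52 against -0.86 to -0.58, a rise of 0.16 with an adjusted p of 0.0475 (limma). That call was lost with raw counts (adjusted p = 0.359, limma), with median bins (0.0782), without any 1 of 8 full-length libraries, and with a 200-kb window, where the difference was 0.03 (0.497). All 3 bins lay outside the range of the 14 full-length libraries. The number of bins called rests on having both ΔN(1–89) libraries: without replicate 1 it was 0, and without replicate 2 it was 3.

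**Figure D2:**
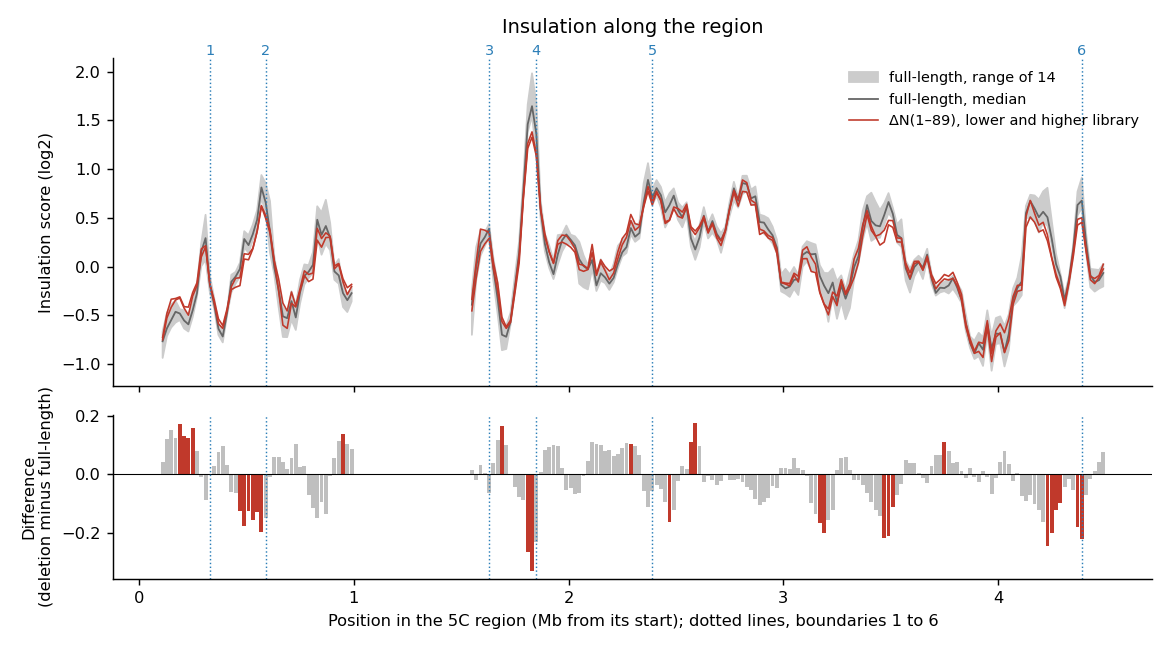
Insulation score (log2) in 20-kb bins along the 5C region (horizontal axis, Mb from its start), with the range and median of 14 full-length libraries in grey and the lower and higher ΔN(1–89) library in red (top), and the difference in means (bottom; red bars are the 30 bins called). The red lines run below the grey band before boundaries 2 and 4 and at boundary 6, and above it in valleys such as the one before boundary 1. The gap holds bins with no score.

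The same question was asked of contacts that span a boundary at longer range. For each pair of neighbouring domains, contacts up to 1000 kb were taken as the mean log2 of observed over expected, where expected is the mean at the same distance in the same library. Across boundary 4, between the Tsix domain and the domain of Rlim, the ΔN(1–89) libraries had -0.73 and -0.68, and full-length libraries -1.10 to -0.85 with a median of -0.97. The depletion of contacts across this boundary was thus less deep in both ΔN(1–89) libraries than in any full-length library, by 0.28, or 1.21-fold. Across boundary 2 the values were -0.33 and -0.30 against -0.56 to -0.34, again above all 14 and higher by 0.09. Both pairs gave p = 0.0167 and an adjusted p of 0.05 over the 6 pairs (exact permutation test, two-sided), at the threshold and not under it.

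Across boundary 5 the values were -0.53 and -0.51 against -0.71 to -0.52, with 1 full-length library between them and an adjusted p of 0.0667 (exact permutation test). Across boundaries 1, 3 and 6, the ΔN(1–89) values (0.11 and 0.11, -0.09 and -0.06, 0.07 and 0.09) lay inside the full-length range, with an adjusted p of 0.75 for each (exact permutation test). Boundary 6, which lost insulation over 100 kb, showed no detectable difference over 1000 kb. With pairs limited to 400 kb, 4 of the 6 were called, boundary 4 with a difference of 0.29, boundary 6 with 0.19, boundary 5 with 0.16 and boundary 2 with 0.12, each at an adjusted p of 0.025 (exact permutation test). Without full-length replicate 12, 3 of the 6 were called over 1000 kb.

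Summed over the map, 21.1% of the signal beyond 40 kb crossed 1 boundary in either ΔN(1–89) library. In full-length libraries this share was 18.7% to 20.7% with a median of 19.99%. Both ΔN(1–89) libraries lay above all 14, by 1.13 percentage points, with an adjusted p of 0.05 (exact permutation test, two-sided, over 3 shares). With 2 libraries against 14, a single share could reach no lower adjusted p, so it could not be called alone. The share that crossed no boundary was 66.0% and 66.2% against 64.7% to 70.9%, and the share that crossed 2 or more was 12.8% and 12.9% against 10.4% to 15.5%, both within the full-length range.

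The corner of a domain is where the contacts between its 2 boundaries fall, here the 3 by 3 bins around their crossing, and it is where loops between CTCF sites are seen. At 3 of 5 corners contacts rose. Between boundaries 1 and 2, the ΔN(1–89) libraries had a log2 observed over expected of 0.37 and 0.51, and full-length libraries -0.24 to 0.24 with a median of -0.02. Between boundaries 3 and 4, the ends of the Tsix domain, they had -0.03 and 0.04 against -0.70 to -0.25 with a median of -0.37. Between boundaries 5 and 6 they had 0.14 and 0.18 against -0.88 to 0.04 with a median of -0.17. In each, both ΔN(1–89) libraries lay above all 14 full-length libraries. The rises were 0.47 (1.38-fold), 0.44 (1.36-fold) and 0.36 (1.28-fold), each with p = 0.0167 and an adjusted p of 0.0278 over 5 corners (exact permutation test, two-sided).

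The corners between boundaries 2 and 3 (0.61 and 0.70 against 0.23 to 0.78) and between boundaries 4 and 5 (0.32 and 0.40 against 0.08 to 0.46) had the highest values in full-length libraries, and there the lines overlapped, with an adjusted p of 0.583 for each (exact permutation test). At the 3 corners that rose, the full-length median was below 0, that is, below the mean at that distance. From raw counts, in which 2 full-length libraries are missing, the 3 differences kept their direction (0.44, 0.50 and 0.28) but had an adjusted p of 0.0549, 0.0549 and 0.0824 (exact permutation test). With the median over primer pairs, the corner between boundaries 5 and 6 had a difference of 0.20 and an adjusted p of 0.146 (exact permutation test). Boundaries 5 and 6 enclose 1980 kb. In the distance class of 1600-3200 kb, the full-length mean signal (log2 -0.84) was under the minimum of 1 set for testing bin pairs. Corners had no such minimum, so with a pseudocount of 0.5 the 1.28-fold rise there is a ratio of low values.

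**Figure D3:**
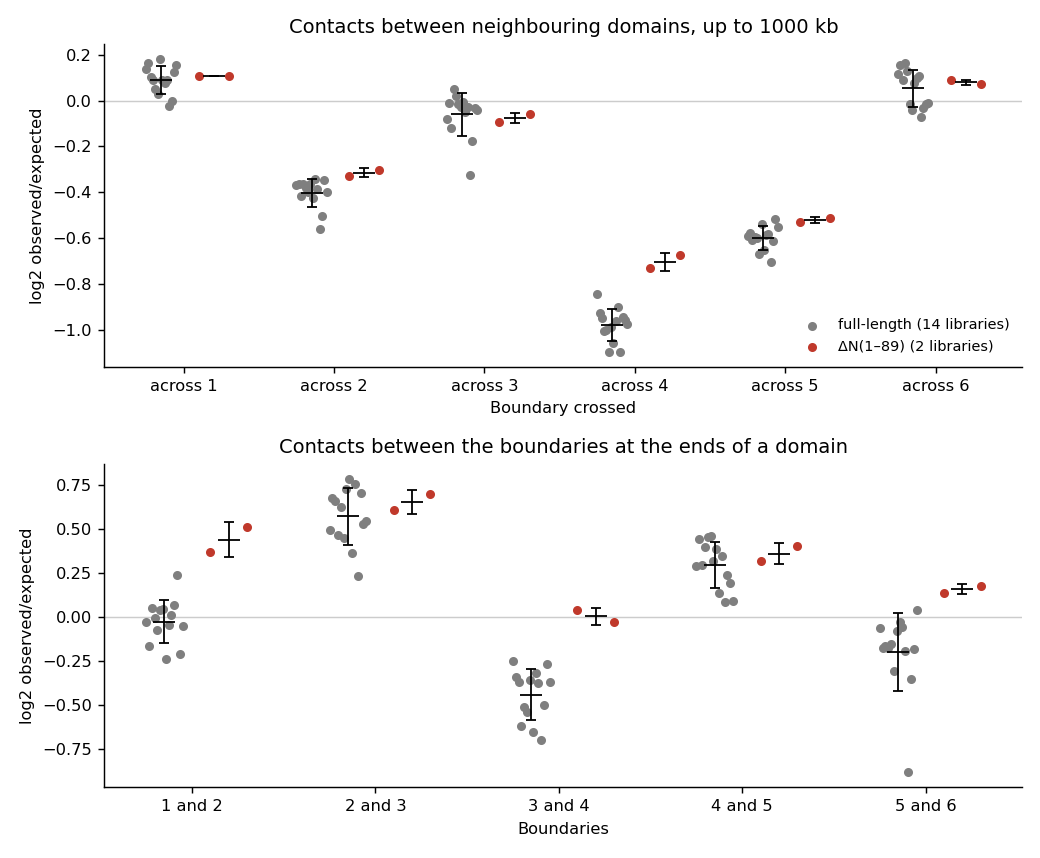
Mean log2 observed over expected for contacts across each boundary up to 1000 kb (top) and for the 3 by 3 bins at the corner of each domain (bottom), with 1 point per library, full-length in grey and ΔN(1–89) in red, and bars for the mean ± SD. Both ΔN(1–89) libraries lie above all 14 full-length libraries across boundaries 2 and 4 and at the corners of boundaries 1 and 2, 3 and 4, and 5 and 6.

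Contacts within domains were compared in the same way. Of 7 segments, 0 were called in the exact permutation tests, and 2 had an unadjusted p under 0.05. Between boundaries 1 and 2, where Rps4x and Pin4 lie, log2 observed over expected was 0.08 and 0.14 in ΔN(1–89) and -0.01 to 0.07 in full-length libraries, so that both lay above all 14, with an adjusted p of 0.117. Between boundaries 5 and 6, the longest domain, it was -0.11 and -0.09 against -0.29 to -0.10, also with an adjusted p of 0.117 (exact permutation test). In the Tsix domain between boundaries 3 and 4, the values of 0.14 and 0.14 lay within the full-length range of 0.12 to 0.23. In the domain of Rlim between boundaries 4 and 5, they were -0.01 and -0.00 against -0.03 to 0.11, also within it. In the remaining segments the lines overlapped too, with adjusted p between 0.194 and 0.733 (exact permutation test).

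The whole map was then tested by single pairs of 20-kb bins, 40 kb or more apart. Of 8507 bin pairs, 0% were called higher and 0% lower at an adjusted p under 0.05 (limma), the smallest adjusted p being 0.243. At an unadjusted p under 0.05, 494 (5.81%) were higher and 320 (3.76%) lower, and 2.99% had both ΔN(1–89) libraries above all full-length ones and 1.53% both below. These pairs were not spread evenly. Of the 232 pairs that cross boundary 4 alone, 69 (29.7%) were higher and 0 lower, and 88.4% had a positive difference, with a median of 0.26. The median over all bin pairs was 0.03. Across the other boundaries, between 2.39% (boundary 3) and 8.26% (boundary 6) were higher and between 1.06% (boundary 1) and 4.32% (boundary 6) lower. Within domains, the largest share higher was 14.5% between boundaries 1 and 2, of 55 pairs, and the largest share lower was 10.8% before boundary 1, of 102 pairs. Within the domain between boundaries 4 and 5, 1.48% were higher and 6.64% lower. Bin pairs share primers and libraries, so these shares are descriptions, and no pair is named because none was called. The count depends on the bin size: with 40-kb bins, 2 of 2531 pairs were called higher and 1 lower.

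**Figure D4:**
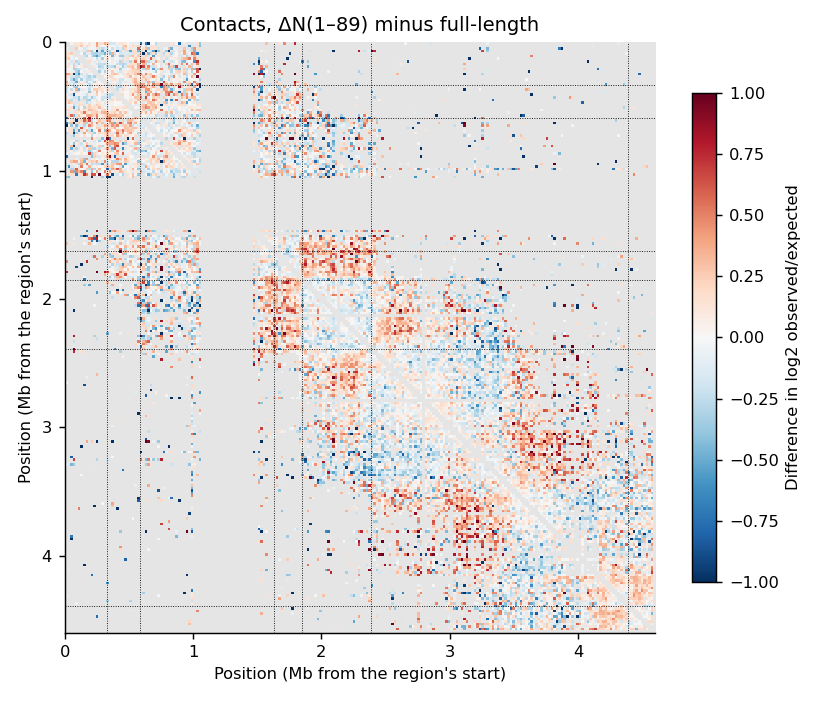
Difference in mean log2 observed over expected, ΔN(1–89) minus full-length, for each of 8507 pairs of 20-kb bins (both axes in Mb from the start of the region; dotted lines, boundaries 1 to 6; grey, not tested; the color scale ends at -1 and 1). The block between boundaries 3 and 5 that spans boundary 4 is largely red, with a median difference of 0.26 over its 232 pairs.

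Contact frequency by distance showed no difference beyond the spread between libraries. In the class of 40-100 kb, the ΔN(1–89) libraries had a log2 mean signal, per 1000000 of library signal, of 4.66 and 4.69, and full-length libraries 4.53 to 4.79. In the class of 800-1600 kb, the values were 0.63 and 0.66 against 0.18 to 0.69, with a difference of 0.19 and the smallest adjusted p of the 7 classes (0.467, exact permutation test). Beyond 3200 kb they were -1.69 and -1.66 against -2.16 to -0.95. None of the 7 classes was called, and 0 had an unadjusted p under 0.05 in the exact tests. Within the same run of library numbers, the differences at 40-100 kb, 200-400 kb and 400-800 kb had the opposite sign (-0.09, -0.15 and -0.01), so no direction is given for them.

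Contacts between bins with FLAG–CTCF peaks were taken from 100 to 1000 kb apart. With a peak in both bins, log2 observed over expected was 0.11 and 0.12 in ΔN(1–89) and 0.01 to 0.16 in full-length libraries, a difference of 0.01 with an adjusted p of 0.783 (exact permutation test). With a peak in 1 bin, it was -0.11 and -0.10 against -0.30 to -0.12, above all 14, with a difference of 0.04 and an adjusted p of 0.05 (exact permutation test). With 2 libraries against 14, a single class could reach no lower adjusted p, so it could not be called alone. With no peak, it was -0.24 and -0.22 against -0.41 to -0.23, with an adjusted p of 0.075 (exact permutation test). None of the 3 classes was under the threshold, and the classes were not tested against each other. The peaks were mapped in full-length cells, and binding of the deleted protein was not measured in the data used here.

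**Figure D5:**
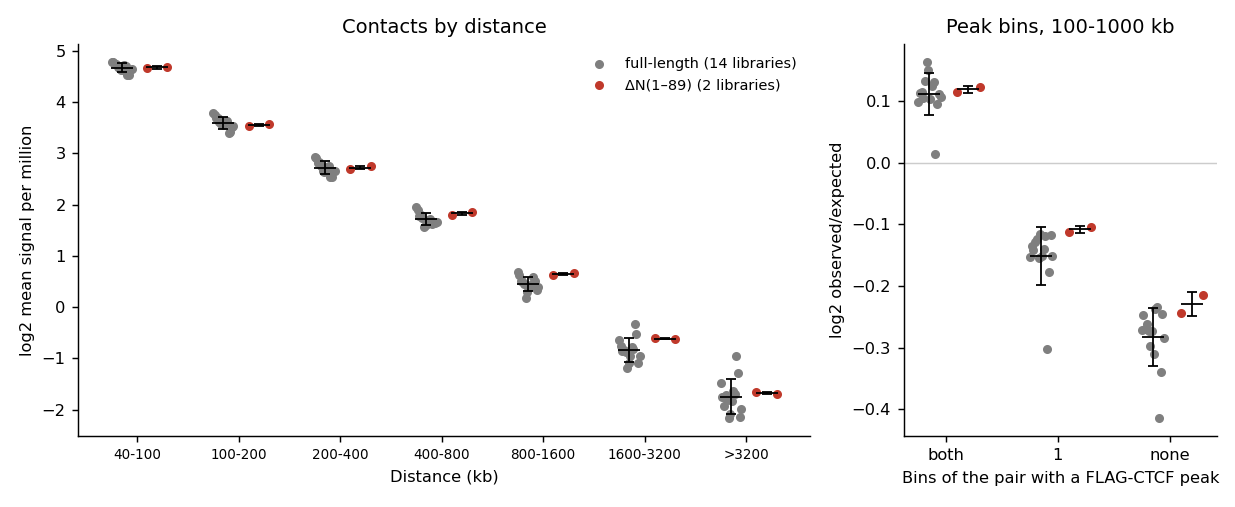
Log2 mean signal (per 1000000 of library signal) by distance class in kb (left) and mean log2 observed over expected for bin pairs 100-1000 kb apart with a FLAG–CTCF peak in both, 1 or no bin (right), with 1 point per library, full-length in grey and ΔN(1–89) in red, and bars for the mean ± SD. The lines overlap in every distance class and with a peak in both bins.

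ΔN(1–89) was also set beside deletions that contain it or lie within it. ΔN(1–265), which removes the whole N-terminus, had a mean insulation of 0.46 to 0.52 over 10 libraries of 2 clones, with a median of 0.48, and the 2 ΔN(1–89) libraries (0.48 and 0.50) lay within that range. The difference was 0.01, with p = 0.727 (exact permutation test, two-sided), and its sign depends on the window and the input. ΔN(13–33), which removes a stretch inside the first 89 residues, scored 0.53 to 0.63 over 10 libraries of 2 clones, with a median of 0.60. Both ΔN(1–89) libraries lay below all 10, by 0.10, with p = 0.0303 and an adjusted p of 0.0909 over 3 comparisons (exact permutation test). ΔN(1–31) scored 0.53 to 0.69 over 4 libraries of 2 clones, also above both ΔN(1–89) libraries, with p = 0.133, the smallest that 2 against 4 allow in the exact test. Of the lines with 2 libraries each, the labelled deletions 89–178 (0.55 and 0.57) and 179–265 (0.42 and 0.44) lay above and below ΔN(1–89). The full-length line with low expression scored 0.50 and 0.51, just above the ΔN(1–89) libraries, and the full-length line without dox scored 0.37 and 0.38. Whether the amount of ΔN(1–89) protein plays a part in its score was not tested.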

How the data were processed

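With Bowtie2 and SAMtools named in the submitters' processing notes, the authors aligned reads to the 5C primers (mm9) and deposited raw counts per pair and the signal left after iterative correction, with poorly covered primers removed. The deposited peak list holds coordinates only. For each library, the forward by reverse block of the corrected signal was scaled to 1000000, primers with only zeros were taken as no data, and values were averaged in 20-kb bins, with the first 2 diagonals filled. A bin needed 50% of its square measured to have an insulation score. Logarithms of observed over expected used a pseudocount of 0.5. Bin pairs tested had at least 3 primer pairs and a mean signal of 1 after scaling. Summary values were compared by two-sided exact permutation tests over the 120 ways to choose 2 of 16 libraries, adjusted by the Benjamini-Hochberg method within each family, and bins and bin pairs with limma 3.58.1 (empirical Bayes with trend) in R 4.3.3. Scripts were tested on simulated data.

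Bins are named if they are a boundary or among the 3 largest rises and falls called. Bin pairs would be named if called and outside the range of all full-length libraries. Boundaries, domains and tests were chosen with earlier results of these data known. The paper's reporting summary describes its experiments as biologically replicated, but the labels do not say which libraries of a line came from separate cultures. The p-values therefore measure only the spread between these libraries. Full-length numbers 3 and 4 occur more than once, and libraries were told apart by library number. Libraries shared at most 6.53% of equal nonzero counts over 91 pairs, so none was counted as a duplicate. Genes are from GENCODE vM1 and sequences from NCBIM37 (mm9). Intervals for counts were not computed, since PCR reads without molecular identifiers are not independent molecules. The alternatives were raw counts, own iterative correction (200 rounds), thinning to 4978817 counts, median bins, other windows, positions, filters, pseudocounts and bin sizes, a replicate block, libraries of 1 run of consecutive library numbers (whether it marks 1 preparation is not stated in the labels) or of 1 matrix form, and each library left out.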

Additional observations from a re-analysis of the deposited data

How the results depend on the processing

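Mean insulation was lower in ΔN(1–89) under every alternative run, by 0.078 with the replicate block to 0.165 by the log2 ratio within to across, and it was called wherever the design could reach the threshold. Leaving out 1 library gave -0.13 to -0.11. The replicate block could use only numbers 1 and 2, which gave a mean difference of -0.078. Deviations of same-numbered libraries from their group mean correlated at -0.184 and 0.179. The deviations of the 2 ΔN(1–89) libraries are equal and opposite, so these correlations can neither show nor exclude pairing. The numbers were not taken as pairs. With the block, limma called 0 bins and 0 bin pairs. The count of boundaries called was 0, but 3 with raw counts, a 200-kb window, the upstream bin and the log2 ratio. Without single libraries it was 0 to 3. Corners called went from 3 to 0 with raw counts and stayed at 3 without any full-length library. Shares of crossing signal called went from 0 to 2 with median bins, peak classes from 0 to 2 with corrected matrices of 1 form, and neighbouring domains from 0 to 4 at 400 kb and to 0 to 3 without single libraries. Bin pairs called were 0 to 1 without single libraries and 3 with 40-kb bins. Bins called were 0 to 45 without single libraries, 65 within the same run of library numbers, 57 with a 200-kb window, and 22 with median bins (10 higher and 12 lower).

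Uncalled differences changed sign as follows. With raw counts, boundary 5 (also in the profile) was at 0.033, the domain between boundaries 2 and 3 at 0.042, and the difference from ΔN(1–265) at -0.087, which a 200-kb window put at -0.032. With median bins, the domain between boundaries 3 and 4 was at 0.014. In the upstream bin, boundary 1 was at -0.087 and boundary 3 at 0.0052, and by the log2 ratio boundary 1 was at -0.083. Within the same run of library numbers, the segment after boundary 6 was at -0.11 and the distance classes from 40, 200 and 400 kb at -0.086, -0.15 and -0.013. With the replicate block, that segment was at -0.12, contacts across boundary 6 at -0.054, and the classes from 40, 200, 400 and 800 kb at -0.11, -0.20, -0.10 and -0.010. The cause of these changes was not tested. A sign change of an uncalled value by less than 1 SD of the full-length libraries is not listed, unless either value was called. With the libraries that have complete counts thinned to 4978817, the difference in mean insulation was -0.12, and the other measures were not thinned. Only 2 libraries of 1 clone carry the deletion.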

Other observations

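ΔN(1–89) and ΔN(1–265) had overlapping mean insulation, and their scores did not overlap at 4 of 6 boundaries, higher in ΔN(1–89) at 2 and lower at 2. ΔN(1–89) scored higher at boundary 3 (0.29 and 0.35 against -0.02 to 0.19) and at boundary 5 (0.63 and 0.67 against 0.35 to 0.47). It scored lower at boundary 4 (1.13 and 1.16 against 1.39 to 1.65) and at boundary 6 (0.45 and 0.50 against 0.59 to 0.72). Each of these gave p = 0.0303, the smallest that 2 against 10 allow, and 0.0519 once adjusted over 12 boundary comparisons with ΔN(1–265) and ΔN(13–33) (exact permutation tests, chosen after seeing the data), so none passed the threshold. Against ΔN(13–33), ΔN(1–89) lay below all 10 libraries at boundaries 2, 4 and 6, with the same p and adjusted p.

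Contacts across boundary 4, between the Tsix domain and that of Rlim, were higher in both ΔN(1–89) libraries (-0.73 and -0.68) than in each of 46 libraries. These came from 8 other transgenes or conditions, with clones of a deletion pooled, and their highest value was -0.82. That set includes the full-length line without dox, at -0.94 and -0.92, in which endogenous CTCF was degraded and no transgene was induced, and the labelled deletion 179–265, whose mean insulation was lower than that of ΔN(1–89). The corners between boundaries 1 and 2 and between boundaries 3 and 4 were likewise above all 46 libraries, but by little. The lower ΔN(1–89) library had 0.37 and -0.031 there, and the highest of the 46 had 0.35 and -0.042. At the corner of boundaries 3 and 4, all the other transgenes and conditions also had means above the full-length mean of -0.44. These ran from -0.35 without dox to -0.17 in ΔN(1–31), so a rise over full-length there was not particular to ΔN(1–89). These measures were picked for their difference from full-length, so the ranks are a description with no test, and 1 clone cannot tell the deletion from the clone.

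Bin pairs were also split by the strand of the core matches in their peaks, from 100 to 1000 kb, using the 29 bins with matches on 1 strand. For 25 convergent pairs, with a plus-strand match upstream and a minus-strand match downstream, log2 observed over expected was 0.44 and 0.48 in ΔN(1–89) and 0.28 to 0.64 in full-length libraries, a difference of -0.05 with an adjusted p of 0.717. For 48 pairs with both matches on the same strand, it was 0.06 and 0.13 against -0.24 to 0.08, a difference of 0.11 with an adjusted p of 0.2. For 25 divergent pairs it was -0.24 and -0.17 against -0.49 to -0.01, with an adjusted p of 0.717 (exact permutation tests over 3 classes, chosen after seeing the data). No class was called.

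Of the 14 core matches near boundaries, 6 had the same 12 bases, CCAGAAGAGGGC, and these lay at or before boundaries 1, 2, 4, 5 and 6. Each other core occurred once.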
